A study of Arabidopsis thaliana with 6 samples.

Results

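Nuclear genes for subunits of the mitochondrial electron transport chain and ATP synthase were examined in Arabidopsis thaliana seedlings. The set holds 54 of the 32744 genes in the deposited tables, chosen by gene identifier from the known composition of the complexes: 23 of complex I, 12 of complex III, 2 of cytochrome c, 9 of complex IV and 8 of ATP synthase. Complex II is not included. All 54 passed the filter on low counts. RNA sequencing of total RNA depleted of ribosomal RNA gave 3 libraries whose genotype label is a double mutant (AT4G15640, AT3G21465) and 3 libraries of wild-type plants. All 6 came from untreated seedlings grown on medium, at Boyes stage 1.04, a stage defined by the number of rosette leaves. The series title places the mutated genes among uncharacterised mitochondrial proteins, and the comparison sets transcript levels of that genotype against wild type. The design text speaks of a gene knockout, and the sources used here name neither alleles nor ecotype. That text calls the replication biological but gives its number as 2, fewer than the 3 libraries of each group. Which libraries of a group came from separate plants or cultures is not stated. The p-values therefore reflect the spread among these 6 libraries, part of which may be technical.

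Respiratory complexes pass electrons from NADH to oxygen and pump protons, and ATP synthase uses the resulting gradient. Complex I takes electrons from NADH and hands them to ubiquinone. Complex III hands them on to cytochrome c, and complex IV, cytochrome c oxidase, hands them to oxygen. Each of complexes I, III and IV and ATP synthase is built from subunits of both genomes. The mitochondrial genome encodes core subunits, many of them hydrophobic, and the nucleus encodes most others, often from several paralogues. In plants, complex I carries a domain of gamma carbonic anhydrases, and the core proteins of complex III are also the mitochondrial processing peptidase (MPP), which removes import signals from precursor proteins.

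Total counts were 78671470, 68633298 and 62235559 in the labelled mutant libraries and 53193772, 74340300 and 77446157 in the wild-type libraries. Counts on mitochondrial genes made up 4.25% to 4.64% of the labelled mutant libraries and 1.56% to 1.71% of wild type. Counts on plastid genes made up 44.1% to 49.0% of the labelled mutant libraries and 55.2% to 57.3% of wild type. Of the targeted genes, AT3G21465 fell by 0.78 on the log2 scale, with 4.61 ± 0.255 CPM in labelled mutants and 7.92 ± 0.4997 CPM in wild type (SD, n = 3 each; edgeR adjusted p = 8.95e-05). AT4G15640 averaged 13.4 ± 0.725 CPM in labelled mutants and 11.95 ± 1.07 CPM in wild type (SD, n = 3 each), and was not lower (log2 fold change 0.16, edgeR adjusted p = 0.121, or 0.0338 leaving out wild type replicate 2; range over 12 alternatives 0.0338 to 0.330). For that reason the group is called by its label throughout. The tables do not show which stretch of either gene a mutation would remove. CPM is the count per 1000000 counts after TMM scaling, so fold changes are relative to the typical gene. Across all tested genes their median was 0.01 on the log2 scale. Shoot marker transcripts (LHCB1.1, LHCB2.1, RBCS1A, RCA) summed to 3267 to 3790 CPM in labelled mutants and 6368 to 7709 CPM in wild type, with 3 of 4 called lower. LHCB2.1 went the other way without a call (log2 fold change 0.29, edgeR adjusted p = 0.152), and the groups overlapped for LHCB1.1. Most of the shoot sum was RBCS1A, with means of 2063 CPM in labelled mutants and 4732 CPM in wild type. Root markers (PYK10, COBL9, WER, CASP1) summed to 505.1 to 556.9 CPM in labelled mutants and 821.5 to 1220 CPM in wild type, with 4 of 4 called lower. Nearly all of the root sum was PYK10, with means of 519 CPM in labelled mutants and 953 CPM in wild type, and the groups overlapped for COBL9. Seed and flower marker sums were at most 1.41 CPM in labelled mutants and at most 4.19 CPM in wild type. The part of tissue makeup in the results was not tested, and in bulk tissue fewer cells of a type and less RNA per cell cannot be told apart.

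The nuclear subunit genes moved little and in both directions, more often upward. A log2 fold change above 0 was seen for 41 members and below 0 for 13, against 11159 and 10646 of all tested genes. The median was 0.07 for the members and 0.01 for all tested genes. For the members it was 0.04 without wild type replicate 3 and 0.11 without wild type replicate 2. This lean was not tested. Of the 54, 16 were higher in labelled mutants than in wild type and 6 were lower (edgeR, adjusted p under 0.05). That is 40.7% called, against 52.4% of all 21805 tested genes called in either direction (26.3% higher and 26% lower). Log2 fold changes, labelled mutants over wild type, ran from -0.43 to 0.79. None of the 54 changed by more than 2-fold, against 13.9% of all tested genes and 8.3% of nuclear genes averaging 5 CPM or more. The median size of the change, regardless of sign, was 0.12 on the log2 scale for the 54, 0.31 for all tested genes and 0.25 for the 12786 nuclear genes that averaged 5 CPM or more. Libraries of a group lay close together: the coefficient of variation of a member had a median of 2.76% over the labelled mutants and 6.51% over wild type. Groups did not overlap for 28 members (51.9%), including all 22 called, against 61.8% of all tested genes. Of the 22 calls, 14 (12 higher and 2 lower) passed in each of the 12 alternative analyses tried. The number of lower calls depends on single libraries: it was 2 without labelled mutant replicate 2 or without wild type replicate 2, and 3 without labelled mutant replicate 3.

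**Figure D1:**
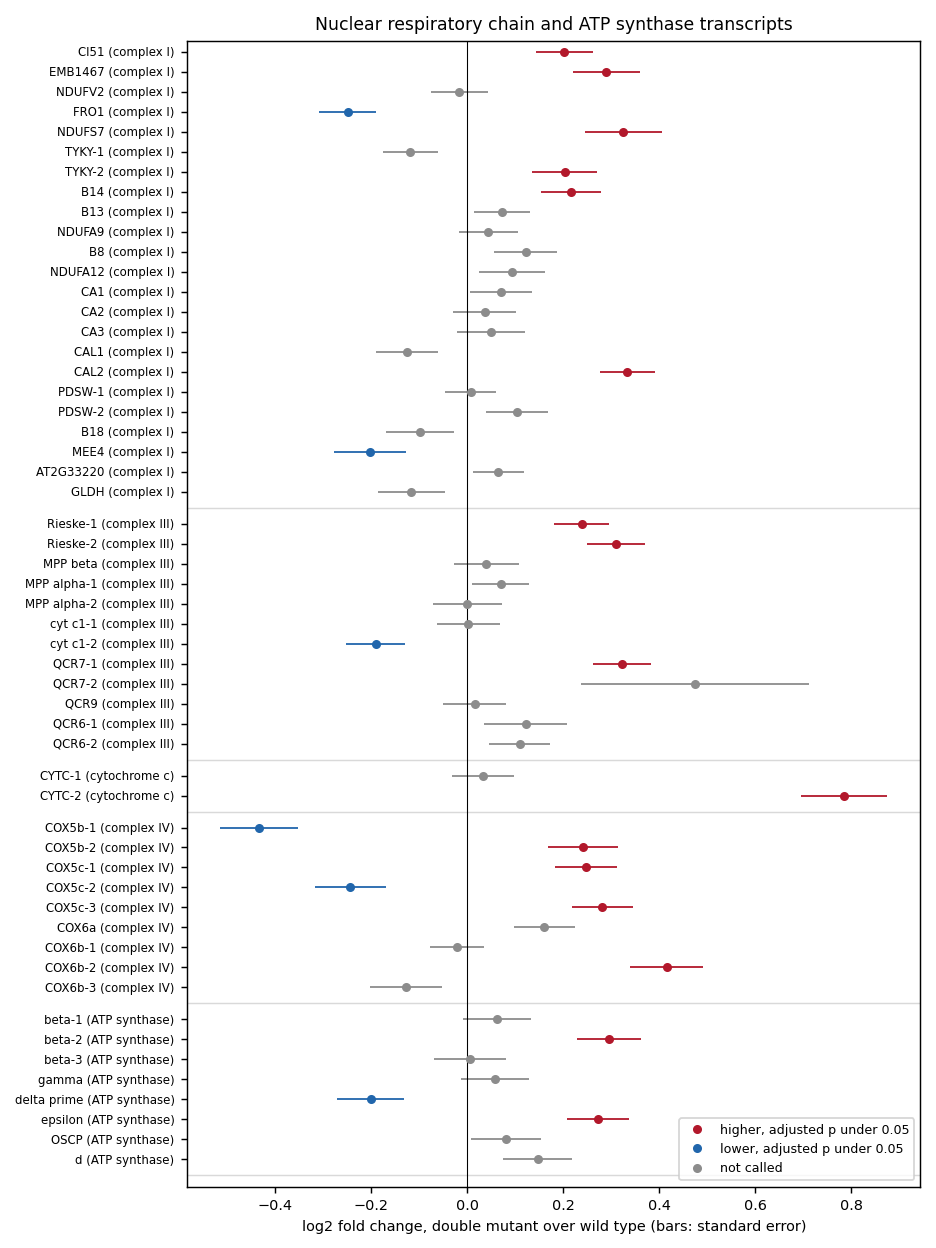
Log2 fold change of each of the 54 nuclear subunit genes, labelled double mutant over wild type (x axis), grouped by complex down the page, with bars for the standard error and colour for the edgeR call. Most points lie between -0.25 and 0.33, CYTC-2 stands apart at 0.79, and COX5b-1 is lowest at -0.43.

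Wild-type libraries differed from each other across the set. Wild type replicate 2 was the highest wild-type library for 42 of the 54 genes and replicate 3 the lowest for 39, with median log2 deviations from the group mean of 0.07 and -0.08. Over all tested genes these medians were -0.0007 and -0.008. Labelled mutant replicate 2 was the lowest of its group for 32 members, with a median deviation of -0.02. Calls that end when one library is left out are named beside each gene below.

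Promoter sequences were read for a feature the choice of members did not use. Site II elements, with the core TGGGCC, or the same letters ending in T (TGGGCT), are known from promoters of Arabidopsis genes for cytochrome c and other respiratory proteins, where transcription factors of the TCP family can bind them. The window from 250 bases before to 50 bases after each gene start was searched on both strands for either form, with overlapping matches counted separately. On the opposite strand the first form reads GGCCCA and the other form, ending in T, reads AGCCCA. At least 1 match was present in 36 of the 54 members (66.7%) and in 5961 of 27442 nuclear protein-coding genes (21.7%). Lists of other genes of the same pathways, described below, varied widely. The share was 78.3% of 23 other complex I subunits, 44.4% of 9 other ATP synthase subunits and 0% of 4 other complex IV subunits. At least 2 matches were found for 31 members (57.4%) and 13.7% of all protein-coding genes. With TGGGCC alone the shares were 53.7% of members and 15.5% of all protein-coding genes. Among members with a match 13 of 36 were called (36.1%), and among those without 9 of 18 (50%), beside 52.4% of all tested genes. The difference between these members was not tested. A match describes the letters of the window and does not show a bound site. The 250 bases upstream of 5 genes are shown, in TAIR10.1 and in the direction of transcription, because they cover the largest change and its uncalled paralogue (CYTC-2, CYTC-1), a family whose members were called in opposite directions (COX5c-1, COX5c-2) and the largest increase in complex IV (COX6b-2). Capitals mark site II matches.
CYTC-2: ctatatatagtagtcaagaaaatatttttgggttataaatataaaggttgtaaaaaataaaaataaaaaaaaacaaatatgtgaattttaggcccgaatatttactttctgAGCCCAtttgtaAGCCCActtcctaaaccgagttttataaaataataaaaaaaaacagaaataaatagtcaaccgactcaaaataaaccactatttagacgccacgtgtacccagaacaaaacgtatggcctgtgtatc
CYTC-1: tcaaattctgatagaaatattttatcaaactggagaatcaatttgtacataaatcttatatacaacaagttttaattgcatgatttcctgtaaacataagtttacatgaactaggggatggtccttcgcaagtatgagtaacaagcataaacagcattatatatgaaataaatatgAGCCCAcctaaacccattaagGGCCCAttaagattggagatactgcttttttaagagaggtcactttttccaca
COX5c-1: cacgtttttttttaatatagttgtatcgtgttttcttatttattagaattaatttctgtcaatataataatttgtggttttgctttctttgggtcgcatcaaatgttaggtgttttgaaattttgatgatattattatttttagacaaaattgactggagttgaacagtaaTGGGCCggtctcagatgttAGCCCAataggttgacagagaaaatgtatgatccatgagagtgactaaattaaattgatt
COX5c-2: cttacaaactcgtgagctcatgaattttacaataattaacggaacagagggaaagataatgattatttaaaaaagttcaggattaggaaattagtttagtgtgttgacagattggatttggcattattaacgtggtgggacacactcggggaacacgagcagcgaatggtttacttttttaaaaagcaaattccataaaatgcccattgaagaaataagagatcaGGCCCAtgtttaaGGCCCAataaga
COX6b-2: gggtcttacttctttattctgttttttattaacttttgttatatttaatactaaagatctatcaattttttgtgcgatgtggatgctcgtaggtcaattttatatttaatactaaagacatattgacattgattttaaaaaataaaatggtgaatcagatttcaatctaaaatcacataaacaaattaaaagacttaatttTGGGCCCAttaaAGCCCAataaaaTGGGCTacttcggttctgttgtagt
All 5 lie on the plus strand: CYTC-2 at chr4:6276698-6276947, CYTC-1 at chr1:8079037-8079286, COX5c-1 at chr2:19440673-19440922, COX5c-2 at chr3:23089346-23089595 and COX6b-2 at chr5:23426397-23426646. In CYTC-2 the matches begin 139 and 127 bases before the gene start, and in CYTC-1 they begin 74 and 53 bases before it. In COX5c-1 they begin 79 and 60 bases upstream, against 25 and 12 bases in COX5c-2. COX6b-2 holds 4 matches within the last 49 bases before its start, of which the first 2 overlap. Neither COX5B gene holds a match in the searched window.

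Complex I, the largest set, had 6 of 23 genes higher and 2 lower (34.8% called, beside 52.4% of all tested genes). Its median log2 fold change was 0.06, which was 0.03 without wild type replicate 3 and 0.10 without wild type replicate 2. In the matrix arm, which holds the NADH site and the chain of iron-sulfur clusters, 6 of 12 genes were called (50%), close to the 52.4% over all tested genes. CI51 (AT5G08530, chr5:2759317-2762019, minus strand), the homologue of mammalian NDUFV1 that binds NADH, had 99.7, 104 and 107 CPM in the labelled mutant libraries, against 87.2, 90.8 and 91.7 CPM in wild type. No labelled mutant library overlapped wild type, and the gene rose by 0.20 ± 0.06 SE on the log2 scale (edgeR adjusted p = 0.0178). The call ended when labelled mutant replicate 2 or 3 was left out (range of adjusted p over the alternatives 0.00813 to 0.0823). EMB1467 (AT5G37510, chr5:14897329-14900693, plus strand), the largest iron-sulfur subunit and homologue of NDUFS1, had 123, 119.7 and 129 CPM in the labelled mutant libraries, against 98.3, 109 and 96.6 CPM in wild type. Every labelled mutant value was above every wild-type value (log2 fold change 0.29 ± 0.07 SE, edgeR adjusted p = 0.00755). The NDUFS7 homologue AT5G11770 (chr5:3790708-3793026, minus strand), which carries the last cluster before ubiquinone, had 41.6, 34.6 and 34.5 CPM in the labelled mutant libraries, against 28.7, 30.2 and 29.4 CPM in wild type. Labelled mutant replicate 1 was the highest of the 6, and the groups were apart (log2 fold change 0.33 ± 0.08 SE, edgeR adjusted p = 0.00890). The LYR-motif accessory subunit B14 (AT3G12260, chr3:3908940-3910475, minus strand) had 32.5, 31.4 and 33.05 CPM in the labelled mutant libraries, against 27.9, 29.5 and 26.04 CPM in wild type. Groups were apart by a narrow margin (log2 fold change 0.22 ± 0.06 SE, edgeR adjusted p = 0.0179), and the call ended without labelled mutant replicate 1 or 3 or wild type replicate 3 (adjusted p over alternatives 0.0127 to 0.0687).

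FRO1 (AT5G67590, chr5:26957915-26959557, plus strand), the NDUFS4 homologue, known in Arabidopsis from a mutant with impaired cold-responsive gene expression, was the matrix arm gene that fell. Its level was 32.9, 31.7 and 33.4 CPM in the labelled mutant libraries, against 38.1, 41.04 and 37.3 CPM in wild type, and the lowest wild-type library was above the highest labelled mutant library. On the log2 scale the change was -0.25 ± 0.06 SE (edgeR adjusted p = 0.00734), a call kept in all 12 alternatives. The iron-sulfur subunit homologous to NDUFS8 is encoded by a pair of genes whose coding sequences are 91.2% identical. TYKY-2 (AT1G16700, chr1:5709624-5712043, plus strand) had 24.8, 23.5 and 24.5 CPM in the labelled mutant libraries, against 22.6, 21.3 and 19.4 CPM in wild type and rose by 0.20 ± 0.07 SE on the log2 scale (edgeR adjusted p = 0.0325). TYKY-1 (AT1G79010) had 37.9, 36.8 and 37.6 CPM in the labelled mutant libraries, against 41.2, 42.2 and 38.6 CPM in wild type and did not pass (log2 fold change -0.12 ± 0.06 SE, edgeR adjusted p = 0.111), although its groups did not overlap. The TYKY-2 call was one of the least stable: it was lost with DESeq2 and when any library but wild type replicate 1 was left out (adjusted p over alternatives 0.0137 to 0.111). TYKY-2 also overlaps AT1G16705 on the same strand by 22 bases.

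The gamma carbonic anhydrase domain, which plants add to the membrane arm, had 1 call among 5 genes (20%, beside 52.4% of all tested genes). CAL2 (AT3G48680, chr3:18034935-18037041, plus strand), a carbonic anhydrase-like protein, had 24.3, 22.8 and 24.7 CPM in the labelled mutant libraries, against 19.2, 19.2 and 18.5 CPM in wild type. It rose by 26.0%, or by 0.33 ± 0.06 SE on the log2 scale (edgeR adjusted p = 0.00135), in all 12 alternatives. Its paralogue CAL1 (AT5G63510) had 21.9, 21.4 and 22.9 CPM in the labelled mutant libraries, against 23.5, 25.8 and 22.9 CPM in wild type, with overlapping groups and a difference of -0.13 ± 0.07 SE on the log2 scale (edgeR adjusted p = 0.138). CA1, CA2 and CA3, the carbonic anhydrases proper, had log2 fold changes between 0.04 and 0.07 and did not pass. In the membrane arm and its junction, MEE4 (AT1G04630, chr1:1289734-1291112, minus strand), a homologue of GRIM-19 (mammalian NDUFA13) named after an embryo arrest mutant, was called lower at the edge of the threshold. It had 8.76, 9.22 and 8.38 CPM in the labelled mutant libraries, against 9.42, 10.8 and 10.11 CPM in wild type, and the groups were apart by a narrow margin (log2 fold change -0.20 ± 0.07 SE, edgeR adjusted p = 0.0492). Just 4 of 12 alternatives kept the call: it was lost with no filter, with DESeq2, with the replicate block and without any library other than wild type replicate 1 (adjusted p over alternatives 0.0227 to 0.168). MEE4 overlaps AT1G04625 on the same strand by 87 bases and shares sequence with it. The other GRIM-19 gene, AT2G33220, had 33.5, 33.4 and 32.8 CPM in the labelled mutant libraries, against 32.01, 32.7 and 30.7 CPM in wild type and did not pass (log2 fold change 0.06 ± 0.05 SE, edgeR adjusted p = 0.338).

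The remaining complex I genes gave no call. Together with the uncalled paralogues above they made 15 genes, with log2 fold changes from -0.13 to 0.12, means from 14.4 to 56.0 CPM and edgeR adjusted p from 0.111 to 0.920. They include NDUFV2 (AT4G02580), an iron-sulfur partner of CI51, at -0.02 ± 0.06 SE. They also include GLDH (AT3G47930), which catalyses the last step of ascorbate synthesis and is needed for complex I assembly, at -0.12 ± 0.07 SE. B8 (AT5G47890), the NDUFA2 homologue, passed only without wild type replicate 1 (edgeR adjusted p = 0.0405; range over alternatives 0.0405 to 0.417).

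Complex III had 3 of 12 genes higher and 1 lower (33.3% called, beside 52.4% of all tested genes). Its median log2 fold change was 0.09, which was 0.04 without wild type replicate 3. Both genes of the Rieske iron-sulfur protein, which takes electrons from ubiquinol, rose. Rieske-1 (AT5G13430, chr5:4305106-4307570, minus strand) had 44.3, 45.9 and 46.6 CPM in the labelled mutant libraries, against 36.8, 40.3 and 38.8 CPM in wild type. Rieske-2 (AT5G13440, chr5:4307973-4310273, minus strand), its neighbour, had 58.98, 54.96 and 59.5 CPM in the labelled mutant libraries, against 47.3, 48.02 and 44.5 CPM in wild type. For both genes all labelled mutant values lay above all wild-type values. Their log2 fold changes were 0.24 ± 0.06 SE and 0.31 ± 0.06 SE (edgeR adjusted p = 0.00794 and 0.00267). The coding sequences are 93.4% identical and the transcripts share 197 exact windows of 50 bases, counted at every position and so overlapping. Reads with several alignments were counted at each of them, so the pair is not fully separated. Rieske-2 also overlaps the ATP synthase gene OSCP by 20 bases on the same strand.

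QCR7-1 (AT4G32470, chr4:15669219-15671249, minus strand), a small subunit of complex III, had 45.3, 43.9 and 44.4 CPM in the labelled mutant libraries, against 36.2, 37.3 and 33.4 CPM in wild type and its groups did not overlap. It rose by 25.0%, or by 0.32 ± 0.06 SE on the log2 scale (edgeR adjusted p = 0.00204), in all 12 alternatives. Its paralogue QCR7-2 (AT5G25450) was by far the weakest member. It had 0.3797, 0.4198 and 0.522 CPM in the labelled mutant libraries, against 0.268, 0.316 and 0.352 CPM in wild type and a log2 fold change of 0.47 ± 0.24 SE that did not pass (edgeR adjusted p = 0.124). For cytochrome c1, the haem protein that passes electrons to cytochrome c, 1 gene of the pair was called. Cyt c1-2 (AT5G40810, chr5:16339863-16342927, plus strand) had 42.6, 41.97 and 43.1 CPM in the labelled mutant libraries, against 49.3, 51.05 and 45.4 CPM in wild type, lower in every labelled mutant library (log2 fold change -0.19 ± 0.06 SE, edgeR adjusted p = 0.0273). This call ended without labelled mutant replicate 2 or 3 or wild type replicate 1 or 2 (adjusted p over alternatives 0.0150 to 0.0812). Cyt c1-1 (AT3G27240) had 38.7, 35.9 and 37.4 CPM in the labelled mutant libraries, against 36.9, 39.9 and 34.96 CPM in wild type, with overlapping groups and a log2 fold change of 0.0021 ± 0.07 SE. The 3 core subunits, which in plants also form the processing peptidase, were close to 0: MPP beta (AT3G02090) had 0.04 ± 0.07 SE, MPP alpha-1 (AT1G51980) 0.07 ± 0.06 SE and MPP alpha-2 (AT3G16480) 0.0008 ± 0.07 SE on the log2 scale. The 8 uncalled genes of complex III all had log2 fold changes above 0, from 0.0008 to 0.47.

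Cytochrome c, the soluble carrier between complexes III and IV, gave the largest change of the set, and in 1 of its 2 genes. CYTC-2 (AT4G10040, chr4:6276948-6278622, plus strand) had 8.94, 8.01 and 8.06 CPM in the labelled mutant libraries, against 5.18, 4.97 and 4.39 CPM in wild type. Every labelled mutant library was well above every wild-type library. CYTC-2 rose by 72.4%, or by 0.79 ± 0.09 SE on the log2 scale (edgeR adjusted p = 0.000129; adjusted p over alternatives at most 0.000821). CYTC-1 (AT1G22840, chr1:8079287-8080574, plus strand) had 37.2, 38.7 and 38.5 CPM in the labelled mutant libraries, against 37.9, 39.4 and 34.4 CPM in wild type, so its groups overlapped, with a difference of 0.03 ± 0.06 SE on the log2 scale (edgeR adjusted p = 0.690). Per kilobase of exon, CYTC-1 remained the more abundant transcript: it had 51.9 ± 1.13 CPM per kb in labelled mutants and 50.7 ± 3.51 in wild type, against 10.2 ± 0.642 and 5.95 ± 0.501 for CYTC-2 (SD, n = 3 each). The share of CYTC-2 in the counts of the pair was 17.96% ± 1.25 in labelled mutants and 11.5% ± 0.444 in wild type (SD, n = 3 each). The coding sequences are 81.7% identical and share no exact stretch of 50 bases, and both upstream windows printed above hold 2 site II matches.

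**Figure D2:**
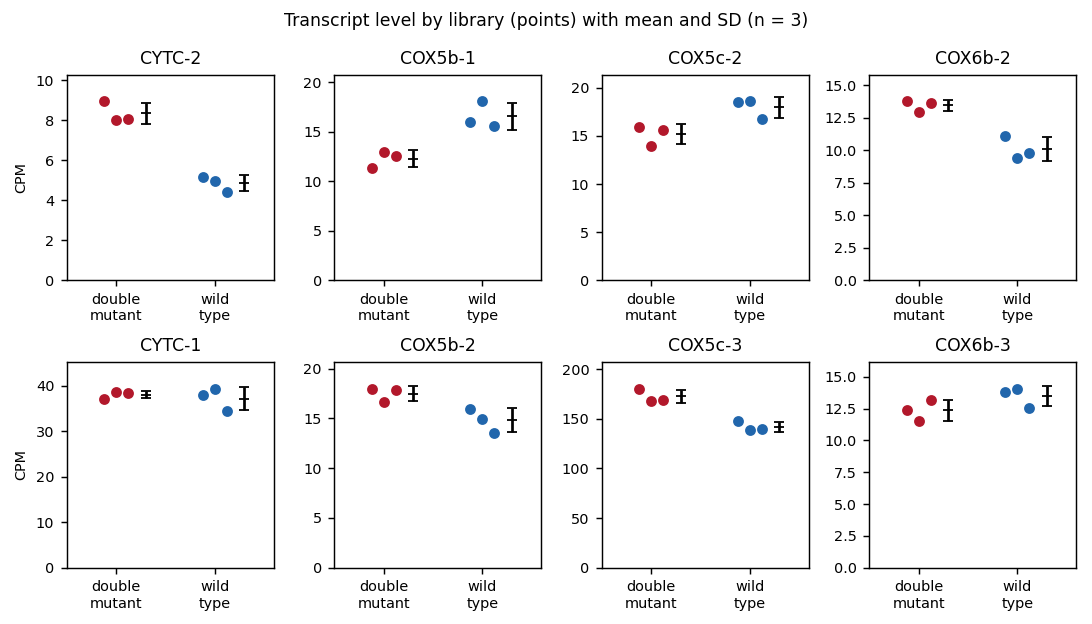
Level in CPM (y axis, linear from 0) of 8 genes in each library (points), labelled double mutant left and wild type right, with the mean and SD of 3 libraries beside them. Each upper panel stands above a paralogue of the same family: CYTC-2 separates while CYTC-1 overlaps, COX5b-1 is lower while COX5b-2 is higher, COX5c-2 is lower while COX5c-3 is higher, and COX6b-2 is higher while COX6b-3 overlaps.

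Complex IV had 4 of 9 genes higher and 2 lower, and its median log2 fold change was 0.16. Its 6 calls (66.7%) stand beside 52.4% of all tested genes, and with 9 genes the share says nothing particular to the complex. COX5b, a zinc-binding subunit on the matrix side in mammals, comes from a pair of genes with 72.9% identical coding sequences that were called in opposite directions. COX5b-1 (AT3G15640, chr3:5298991-5301745, plus strand) had 11.3, 12.9 and 12.6 CPM in the labelled mutant libraries, against 15.96, 18.1 and 15.6 CPM in wild type. It was lower in every labelled mutant library and fell by 0.43 ± 0.08 SE on the log2 scale (edgeR adjusted p = 0.00205), in all 12 alternatives. COX5b-2 (AT1G80230, chr1:30169456-30171334, minus strand) had 17.98, 16.7 and 17.8 CPM in the labelled mutant libraries, against 15.9, 14.9 and 13.6 CPM in wild type, higher in every labelled mutant library (log2 fold change 0.24 ± 0.07 SE, edgeR adjusted p = 0.0215). The COX5b-2 call ended without labelled mutant replicate 1 or 3 or wild type replicate 3 (adjusted p over alternatives 0.0101 to 0.0763). COX5b-1 held 41.2% ± 2.55 of the counts of the pair in labelled mutants and 52.8% ± 2.43 in wild type (SD, n = 3 each). COX5b-1 had fewer counts than COX5b-2 in all 3 labelled mutant libraries and more in all 3 wild-type libraries, by a narrow margin in wild type replicate 1.

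COX5c is a small membrane subunit from 3 genes, all of them called. COX5c-3 (AT5G61310, chr5:24653261-24654940, minus strand), the most abundant complex IV member per kilobase, had 180.4, 168 and 169 CPM in the labelled mutant libraries, against 148, 139 and 139 CPM in wild type. Its groups were apart (log2 fold change 0.28 ± 0.06 SE, edgeR adjusted p = 0.00538). COX5c-1 (AT2G47380, chr2:19440923-19442053, plus strand) had 18.9, 18.1 and 16.6 CPM in the labelled mutant libraries, against 14.9, 15.3 and 14.9 CPM in wild type, also with groups apart (log2 fold change 0.25 ± 0.06 SE, edgeR adjusted p = 0.0106). COX5c-2 (AT3G62400, chr3:23089596-23090821, plus strand) had 15.9, 13.96 and 15.6 CPM in the labelled mutant libraries, against 18.5, 18.6 and 16.7 CPM in wild type and was lower (log2 fold change -0.24 ± 0.07 SE, edgeR adjusted p = 0.0220). Of these 3 calls, that of COX5c-2 ended without labelled mutant replicate 2 or wild type replicate 1 or 2 (adjusted p over alternatives 0.0185 to 0.0702). COX5c-1 and COX5c-2 both hold 2 site II matches upstream, as printed above, and were called in opposite directions.

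COX6b, on the intermembrane face of the oxidase in mammals, has 3 genes, and 1 was called. COX6b-2 (AT5G57815, chr5:23426647-23427911, plus strand) had 13.8, 12.99 and 13.7 CPM in the labelled mutant libraries, against 11.1, 9.41 and 9.81 CPM in wild type, with every labelled mutant library above every wild-type one. It rose by 33.4%, or by 0.42 ± 0.08 SE on the log2 scale (edgeR adjusted p = 0.00187), in all 12 alternatives. COX6b-3 (AT4G28060), 86.9% identical to it in coding sequence, had 12.4, 11.5 and 13.2 CPM in the labelled mutant libraries, against 13.8, 14.1 and 12.6 CPM in wild type, with overlapping groups (log2 fold change -0.13 ± 0.08 SE, edgeR adjusted p = 0.187). COX6b-1 (AT1G22450), the longest form, had 35.3, 36.8 and 35.3 CPM in the labelled mutant libraries, against 37.1, 37.3 and 34.7 CPM in wild type and differed by -0.02 ± 0.06 SE on the log2 scale (edgeR adjusted p = 0.778). COX6a (AT4G37830) did not pass although its groups were apart (log2 fold change 0.16 ± 0.06 SE, edgeR adjusted p = 0.0625). Leaving out wild type replicate 2 made it pass (edgeR adjusted p = 0.0258; range over alternatives 0.0258 to 0.193).

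ATP synthase had 2 of 8 genes higher and 1 lower (37.5% called, beside 52.4% of all tested genes). Its median log2 fold change was 0.07, which was 0.03 without wild type replicate 3 and 0.14 without wild type replicate 2. The catalytic beta subunit has 3 adjacent genes on chromosome 5. Beta-2 (AT5G08680, chr5:2821739-2825039, plus strand), the least abundant of them, had 119, 114 and 116 CPM in the labelled mutant libraries, against 94.7, 101 and 89.1 CPM in wild type and rose (log2 fold change 0.30 ± 0.07 SE, edgeR adjusted p = 0.00545), in all 12 alternatives. Beta-1 (AT5G08670) had 200.01, 199 and 205 CPM in the labelled mutant libraries, against 183, 209.5 and 186 CPM in wild type, and beta-3 (AT5G08690) had 182, 187 and 186 CPM in the labelled mutant libraries, against 173, 203 and 177 CPM in wild type. For both, wild type replicate 2 was the highest of the 6 libraries, the groups overlapped, and the log2 fold changes were 0.06 ± 0.07 SE and 0.01 ± 0.08 SE. The 3 coding sequences are 90.5% to 94.4% identical. Each pair of genes shares 64 to 146 overlapping exact windows of 50 bases, so some reads were counted at more than 1 of these genes. Epsilon (AT1G51650, chr1:19152508-19154051, plus strand), a small subunit of the rotating central stalk, had 43.8, 44.7 and 45.3 CPM in the labelled mutant libraries, against 37.5, 39.2 and 34.0 CPM in wild type. It was higher in every labelled mutant library (log2 fold change 0.27 ± 0.07 SE, edgeR adjusted p = 0.00752) and passed in all 12 alternatives. Delta prime (AT5G47030, chr5:19090150-19092416, plus strand), another central stalk subunit, had 41.5, 37.7 and 37.5 CPM in the labelled mutant libraries, against 42.7, 48.1 and 43.3 CPM in wild type and was called lower (log2 fold change -0.20 ± 0.07 SE, edgeR adjusted p = 0.0385). With the replicate block that call was lost, as it was without labelled mutant replicate 2 or 3 or wild type replicate 2 or 3 (adjusted p over alternatives 0.0220 to 0.134). The gamma subunit ATP3 (AT2G33040) had 0.06 ± 0.07 SE, the stator subunit OSCP (AT5G13450) 0.08 ± 0.07 SE and subunit d (AT3G52300) 0.15 ± 0.07 SE on the log2 scale, and none of the 3 passed.

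Levels per kilobase of exon ranged over more than 2 orders of magnitude across the set. In labelled mutants they ran from 0.316 CPM per kb for QCR7-2 to 102.7 for COX5c-3, and in wild type from 0.224 for QCR7-2 to 92.9 for beta-1. Beta-1, beta-3, ATP3, OSCP, subunit d and MPP beta lay between 69.7 and 97.0 CPM per kb in labelled mutants and between 66.5 and 92.9 in wild type. Complex I genes lay below these, from 5.76 (GLDH) to 50.1 (CI51) CPM per kb in labelled mutants. In wild type they ran from 6.23 (GLDH) to 47.1 (FRO1). Members of other complexes also lay in that range, such as delta prime (31.7 in labelled mutants, 36.4 in wild type) and Rieske-1 (35.1 and 29.7). Summed over its nuclear members, complex I had 621.7 ± 9.13 CPM per kb in labelled mutants and 593.8 ± 26.0 in wild type (SD, n = 3 each), a ratio of 1.05. Complex III had 354.5 ± 5.81 and 328.1 ± 16.8, complex IV 298.5 ± 6.35 and 273.3 ± 10.2, and ATP synthase 547.9 ± 5.07 and 514.8 ± 36.8, each in labelled mutants and in wild type. The sums overlapped between the groups for complex I and ATP synthase, where wild type replicate 2 was at 620.7 and 555.1 CPM per kb. They did not overlap for complexes III and IV and for cytochrome c. Levels of single genes did not overlap for 61.8% of all tested genes. In complex IV, COX5c-3 alone had 84.5 CPM per kb in wild type and 102.7 in labelled mutants, and 4 of the 9 genes had log2 fold changes below 0.

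**Figure D3:**
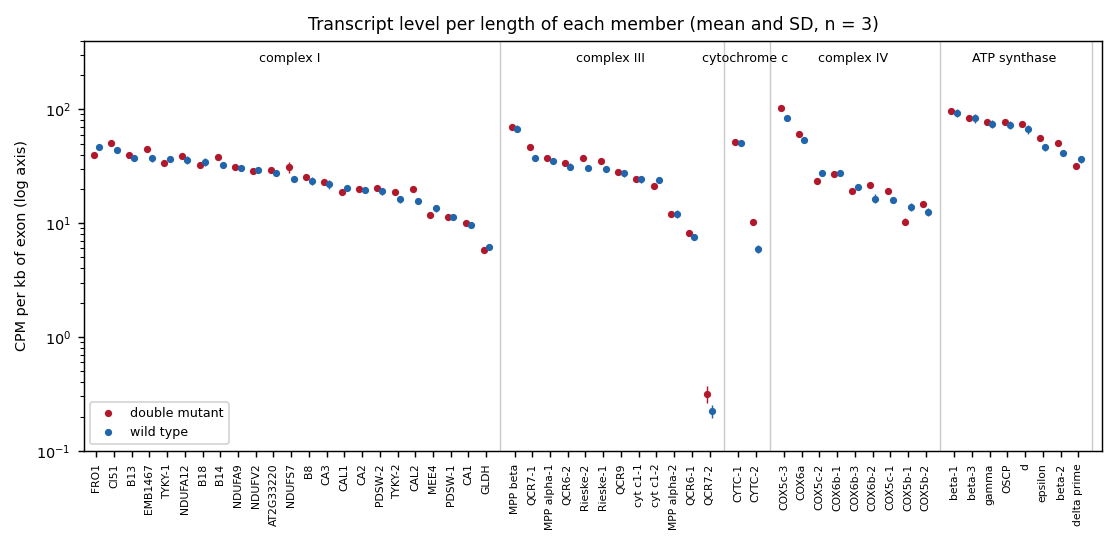
Level of each of the 54 genes in CPM per kilobase of exon (y axis, log scale), mean and SD of 3 libraries, labelled double mutant left of wild type, sorted within each complex. The groups lie close together for nearly all genes, QCR7-2 stands far below the rest, and CYTC-2 and QCR7-2 show the widest gaps.

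The 54 genes include 15 families of 2 or 3 paralogues, 34 genes in all, and 20 genes without a paralogue among the members. In 8 families some but not all genes were called, in 3 all were (Rieske, COX5B, COX5C), and in 4 none was. Of these 34 genes 15 were called, beside 52.4% of all tested genes, and whether calls differ between paralogues more than between unrelated genes was not tested. COX5B and COX5C were called in both directions. The share of a gene in its family does not depend on the scaling between libraries, and for 21 of 34 shares, in 10 families, the groups did not overlap. This is 61.8%, and levels, a different measure, did not overlap for 61.8% of all tested genes. No background was computed for family shares, and both shares of a pair carry 1 difference with opposite signs. With 3 libraries against 3 the exact two-sided permutation test cannot give less than p = 0.1, and those 21 shares had this p (0.162 after Benjamini-Hochberg adjustment over 34 shares), so no share passed. The widest gap was that of COX5b-2, with 58.8% ± 2.55 of its family in labelled mutants and 47.2% ± 2.43 in wild type. CAL2 held 51.99% ± 0.495 in labelled mutants and 44.1% ± 1.24 in wild type. COX6b-2 held 21.9% ± 0.616 in labelled mutants and 16.9% ± 1.26 in wild type. TYKY-2 held 39.3% ± 0.326 in labelled mutants and 34.2% ± 1.11 in wild type. COX5c-2 was lower, with 7.37% ± 0.375 in labelled mutants and 10.3% ± 0.480 in wild type (SD, n = 3 each). Shares of the Rieske, QCR7, QCR6 and PDSW pairs and of CA1, CA2 and CA3 overlapped between the groups.

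**Figure D4:**
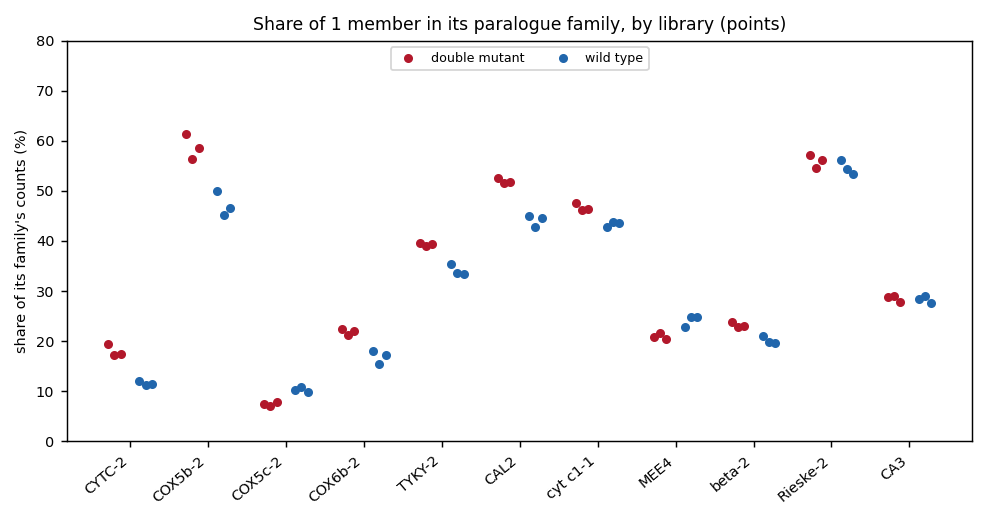
Share of 11 genes in the counts of their paralogue family, in percent (y axis), by library (points), labelled double mutant left of wild type. CYTC-2, COX5b-2, COX6b-2, TYKY-2, CAL2, cyt c1-1 and beta-2 lie higher in labelled mutants, COX5c-2 and MEE4 lie lower, and Rieske-2 and CA3 overlap.

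Subunits of the same complexes encoded by the mitochondrial genome were set beside the nuclear ones. All 19 entries of that kind were higher in labelled mutants at an edgeR adjusted p of 4.98e-05 or less, with a median log2 fold change of 1.17. Over all tested genes 26.3% were called higher. The share of counts on all mitochondrial genes, given above, was also larger in labelled mutants, and whether the rise is particular to these subunits was not tested. The medians were 1.39 for 9 complex I entries, 1.03 for cob of complex III, 1.13 for 3 complex IV entries and 0.82 for 6 ATP synthase entries. Those of ATP synthase include separate entries for atp6 (0.78 and 0.83), and any read aligning to both was counted at each. The nuclear members of the same complexes had medians of 0.06, 0.09, 0.16 and 0.07. Summed levels per kilobase of the mitochondrial entries were divided by those of the nuclear members. Further nuclear subunits are left out of these sums, so the ratios do not describe whole complexes. Mitochondrial entries were matched to reference genes by start or end alone, so an entry may hold part of a gene. For complex I the ratio was 17.6, 17.7 and 16.8 in the labelled mutant libraries and 6.75, 6.90 and 7.43 in wild type. For complex III the ratio was 3.16 ± 0.249 in labelled mutants and 1.67 ± 0.0179 in wild type. For complex IV it was 15.05 ± 0.243 in labelled mutants and 7.18 ± 0.375 in wild type, and for ATP synthase 30.99 ± 0.915 and 17.96 ± 0.798 (SD, n = 3 each). The groups did not overlap for any of the 4 ratios. The difference between the genomes was not tested.

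**Figure D5:**
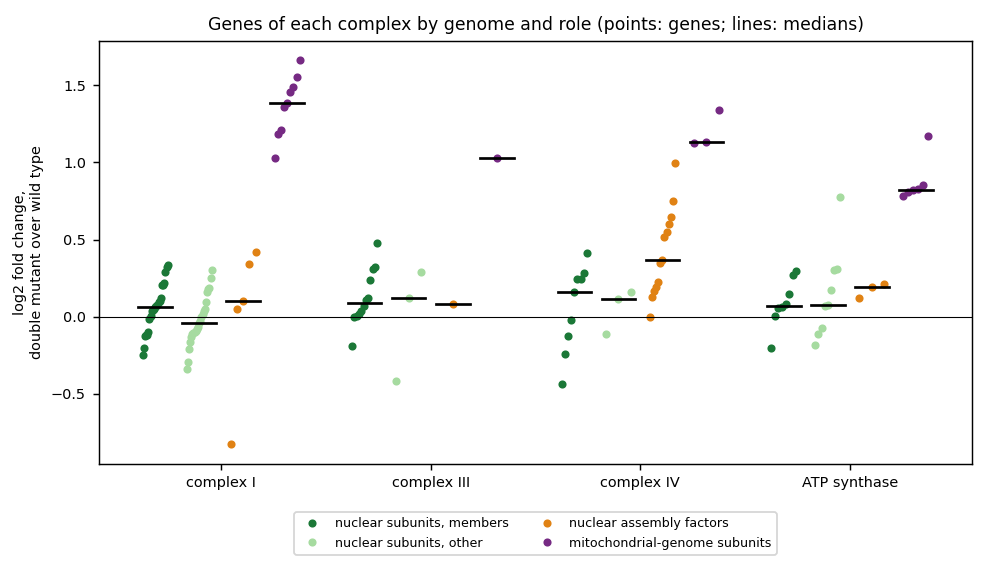
Log2 fold change, labelled double mutant over wild type (y axis), of genes of each complex (points) with the median as a line, split into the nuclear members, other nuclear subunits, nuclear assembly factors and mitochondrial-genome subunits. The mitochondrial entries lie between 0.78 and 1.66, the nuclear members between -0.43 and 0.47 (cytochrome c is not drawn), and several complex IV assembly genes lie above 0.5.

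Other nuclear genes of the same pathways were counted from lists of further subunits and assembly factors. Of 38 other tested subunits 8 were higher and 5 lower, and their median log2 fold change was 0.01. That is 34.2% called, beside 52.4% of all tested genes. Among 23 further complex I subunits 4 were higher: AT1G14450 (0.30), a homologue of NDUFB3, AT2G47690 (0.25), a homologue of NDUFS5, AT4G20150 (0.19) and AT3G06310 (0.18), a homologue of NDUFA8. Another 4 were lower: mtACP3 (-0.34) and MTACP-1 (-0.21), mitochondrial acyl carrier proteins, AT1G67785 (-0.29) and AT1G76200 (-0.17). Of these 8 calls, those of AT1G14450 and AT2G47690 alone passed in all 12 alternatives. The number of calls in this list fell to 4 with the DESeq2 Wald test and to 3 without labelled mutant replicate 2 or 3 or wild type replicate 2. QCR8, a small subunit of complex III, has a pair of genes that went opposite ways. AT3G10860 averaged 29.3 ± 2.11 CPM in labelled mutants and 23.98 ± 1.11 CPM in wild type (SD, n = 3 each; log2 fold change 0.29 ± 0.07, SE; edgeR adjusted p = 0.00775). AT5G05370 averaged 5.26 ± 0.154 CPM in labelled mutants and 7.005 ± 0.392 CPM in wild type (SD, n = 3 each; log2 fold change -0.41 ± 0.08, SE; edgeR adjusted p = 0.00200). Among 9 further ATP synthase genes 3 were higher and none lower (33.3% called, beside 52.4% of all tested genes). AT5G04750, which encodes the inhibitor protein of the F1 part, had the largest change. It averaged 25.1 ± 1.65 CPM in labelled mutants and 14.7 ± 1.61 CPM in wild type (SD, n = 3 each; log2 fold change 0.78 ± 0.09, SE; edgeR adjusted p = 0.000127). The other 2 were AT2G27730 (0.30) and the subunit g gene AT4G26210 (0.31), whose call ended without labelled mutant replicate 2 (edgeR adjusted p = 0.0509; range over alternatives 0.00880 to 0.0509). None of 3 tested further complex IV genes was called by edgeR, DESeq2 or limma-voom, and 1 had an unadjusted p under 0.05.

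Assembly factors of complex IV had a median log2 fold change of 0.37, beside 0.16 for the members of that complex. Of 13 listed genes 8 were higher and none lower (61.5% called). Over all tested genes 52.4% were called in either direction and 26.3% were called higher. COX15, which helps make haem A, averaged 9.85 ± 0.275 CPM in labelled mutants and 5.86 ± 0.205 CPM in wild type (SD, n = 3 each; log2 fold change 0.75 ± 0.07, SE; edgeR adjusted p = 3.70e-05). It overlaps AT5G56100 on the same strand by 81 bases. HCC2, related to copper chaperones of the SCO family, averaged 5.02 ± 0.349 CPM in labelled mutants and 2.49 ± 0.429 CPM in wild type (SD, n = 3 each; log2 fold change 1.00 ± 0.13, SE; edgeR adjusted p = 0.000272). COX19-1 (0.55) and COX19-2 (0.52) are related to a copper-handling protein of the intermembrane space in yeast. They share 646 overlapping exact windows of 50 bases and are not fully separated by the counting. For complex I assembly, 3 of 5 genes were called (60%), beside 52.4% of all tested genes. INDH (AT4G19540), which delivers iron-sulfur clusters to complex I, was the gene that fell. It averaged 4.09 ± 0.242 CPM in labelled mutants and 7.26 ± 0.403 CPM in wild type (SD, n = 3 each; log2 fold change -0.83 ± 0.08, SE; edgeR adjusted p = 6.83e-05). AT3G28700 (0.42) and AT1G62730 (0.34) were higher. DESeq2 did not call AT1G62730, and its edgeR call was lost without labelled mutant replicate 2 or 3 or wild type replicate 1 or 3 (adjusted p over alternatives 0.0150 to 0.0944). Of 3 ATP synthase assembly genes AT5G40660 (0.19) was called higher, and the call ended with DESeq2 and without labelled mutant replicate 2 or 3 or wild type replicate 1 or 3 (adjusted p over alternatives 0.0311 to 0.121). The single complex III assembly gene and 3 nuclear genes of cytochrome c maturation gave 0 calls with edgeR, DESeq2 and limma-voom, and 0 had an unadjusted p under 0.05. The difference between assembly factors and subunits was not tested.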

How the data were processed

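Raw read counts per gene were deposited by the authors, 1 table per library, counted with featureCounts 2.0.0 on TAIR10 per the file headers and aligned with STAR per the submitters' processing notes (no version is given in the sources used here). Per the file headers, the deposited counts were strand-specific and summed over exons, and multi-mapping reads were counted at every alignment. Exon length came from the same tables. Titles number 3 libraries per genotype, whereas the design text speaks of 2 biological replicates, and all 6 were used. No pair of libraries agreed within sampling noise (chi-square per degree of freedom 10.9 to 38.3 within groups).

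The quasi-likelihood test of edgeR 4.0.16 (R 4.3.3) was run two-sided on these counts, after filterByExpr and TMM scaling, with group as the single term, with Benjamini-Hochberg adjustment over 21805 genes and a threshold of 0.05. Standard errors (SE) are the absolute log2 fold change over the root of its F value. Alternatives were RLE scaling, nuclear genes only, no filter, the DESeq2 1.42.0 Wald test, limma-voom (limma 3.58.1), a replicate block and leaving out each library, 12 in all. Ranges of adjusted p over alternatives cover all 12. The fitting code was tested on simulated data.

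Members and lists were chosen with earlier results of these data known. By rule, called members and their paralogues are given by library, uncalled ones by range, and called list genes by name where a direction holds 5 or fewer, otherwise the 4 with the smallest adjusted p. Reference sequences and gene symbols came from RefSeq TAIR10.1. All 54 members had the same coordinates and strand there as in the deposited tables, as did 99.95% of 32548 nuclear genes. Gene starts are annotated starts, not measured ones.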

Additional observations from a re-analysis of the deposited data

How the results depend on the processing

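Over the 12 alternatives the number of called members ranged from 15 to 22, against 22 as reported, and no called gene changed direction. Of 648 combinations of a member and an alternative, 612 kept the call or its absence, 34 lost a call and 2 gained one. Leaving out 1 library gave 2 to 5 lower calls among the members (6 as reported), 3 to 7 calls among the other complex I subunits (8 as reported), 0 to 1 among ATP synthase assembly genes (1 as reported) and 0 to 1 among the other complex IV subunits (0 as reported). The median log2 fold change of complex III ran from 0.0441 to 0.110 in the same analyses. With the DESeq2 Wald test, 4 other complex I subunits and 0 ATP synthase assembly genes were called. Dividing summed levels by nuclear counts in place of TMM-scaled totals raised the ratios of labelled mutants over wild type to 1.12 for complex I, 1.16 for complex III, 1.18 for cytochrome c, 1.17 for complex IV and 1.14 for ATP synthase. These were 1.05, 1.08, 1.096, 1.09 and 1.06 as reported. Family shares per kilobase of exon kept their sign where groups were apart, and 5 of 34 moved by more than the spread, all in COX5C and COX6B. Causes were not tested.

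Libraries of the same number in both genotypes had deviations that correlated by 0.19, 0.07 and -0.002, and not every library correlated best with its own number, so the numbers were not taken to pair them. With a replicate block 20 members were called, 16 higher and 4 lower, and 5 of the other complex I subunits. Precision is limited by 3 libraries per group, by reads shared between paralogues and, for QCR7-2, by its low count.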
